A study of Homo sapiens with 6 samples.

Results

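Chaperone transcripts were examined in an RNA immunoprecipitation sequencing (RIP-seq) experiment on IGF2BP2. The genes were taken by symbol from the deposited count table: the subunits of the cytosolic chaperonin CCT (TCP1 and CCT2 to CCT8), the mitochondrial chaperonin pair HSPD1 and HSPE1, the HSP90, HSP70 and HSP110 proteins, the small heat shock proteins, and the J proteins of classes A, B and C (DNAJA, DNAJB, DNAJC). Of 77 matching symbols among 20020 genes, 72 had 20 or more reads over the 6 libraries and were kept. The 5 left out were HSPB9 with 16 reads, HSPA6 with 5, DNAJB8 with 3, HSPB2 with 1 and HSPB3 with 0. The members nearest the minimum were HSPA1L with 40 reads and DNAJA4 with 45.

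The question was which chaperone mRNAs are over- or under-represented with IGF2BP2. The cells were 786-O, an established human line of clear cell renal carcinoma, and the libraries fall into a RIP group of RNA recovered with IGF2BP2 (n = 3) and an input group (n = 3), both labelled as poly(A) RNA. IGF2BP2 is a cytoplasmic RNA-binding protein described as a reader of N6-methyladenosine, and the series is titled for TGF-beta and SMAD signalling in renal carcinoma. Both groups share the same cells, with no treatment in the labels, and all results come from 1 cell line. Nothing in the labels ties the replicates to separate cultures, and every p-value rests on the spread of 3 libraries a group that may differ only technically. A control antibody was not analysed here, and RNA that sticks to beads or to any antibody is part of the RIP values.

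Chaperones help other proteins fold, assemble, cross membranes or be degraded. CCT is a double ring that folds actin and tubulin and is built from the products of separate genes, each present once in a ring. HSP70 proteins bind short unfolded stretches in cycles of ATP hydrolysis that J proteins start and exchange factors end, and HSP90 takes over clients such as kinases and steroid receptors. Many of these genes are induced by heat shock factor HSF1 when proteins misfold, and those of the endoplasmic reticulum (ER) by the unfolded protein response.

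The libraries held 33872621 to 44045835 reads in the RIP group and 25773819 to 27226405 in the input group. Of the renal carcinoma markers, PAX8 stood at 145 to 157 FPKM (reads scaled to gene length and library total) in RIP and 104 to 110 in input, and VIM at 1364 to 1506 and 2014 to 2115. CA9 had at most 1.13 FPKM in RIP and 5.77 in input, and NDUFA4L2 at most 0.822 and 0.56. The 5 endothelial markers summed to 1.02 to 1.39 FPKM in RIP and 1.09 to 1.83 in input, and the 4 fibroblast markers to 2.05 to 2.56 and 2.10 to 2.92. The 5 immune markers summed to 57.7 to 62.4 FPKM in RIP and 25.3 to 26.6 in input. Nearly all of that was CD68, at 57.5 to 62.3 and 25.0 to 26.3, and CD3E had 0 reads in every RIP library. The part of these markers in the results was not tested. By the annotation spans, 20 of the 72 members overlap another gene of the count table, among them TCP1, CCT3, CCT4, HSP90AA1, HSPE1, HSPA12A, HSPA14, DNAJB1, DNAJC7 and DNAJC9, and whether the counting used strand is not given in the sources used here. Values of these genes carry that uncertainty.

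Most chaperone transcripts were lower with IGF2BP2 than in input. The 72 genes took, before TMM scaling, 0.555% ± 0.00882 of all reads in RIP and 1.26% ± 0.0137 in input (SD, n = 3 each). After scaling with TMM, edgeR's quasi-likelihood test could be run on 69 of the 72, and at a Benjamini-Hochberg adjusted p under 0.05 it called 45 depleted and 16 enriched, with 8 not called. Over all 12856 genes tested, 42.0% were depleted and 40.7% enriched, 82.7% in either direction. Scaled by library size only, 50 members were depleted and 14 enriched, against 50.4% and 32.0% of all genes. The median log2 fold change was -0.51 over the tested members and -0.02 over all genes tested. Changes of at least 2-fold were called for 26 depleted and 9 enriched members, against 19.7% and 15.1% of all genes. All RIP libraries lay below all inputs for 46 tested members and above them for 16, and 7 overlapped, whereas 42.2% of all genes lay below and 40.9% above. The extremes were HSP90B1 at -2.30 and HSPB6 at 1.79, HSPB6 on few reads. Not tested for lack of reads were HSPA1L (0.0496 to 0.128 normalised CPM in RIP, 0.176 to 0.604 in input), HSPB7 (0.223 to 0.543 and 0.214 to 0.269) and DNAJA4 (0.160 to 0.400 and 0.107 to 0.282). Normalised CPM are read counts scaled to the TMM-adjusted library size.

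**Figure D1:**
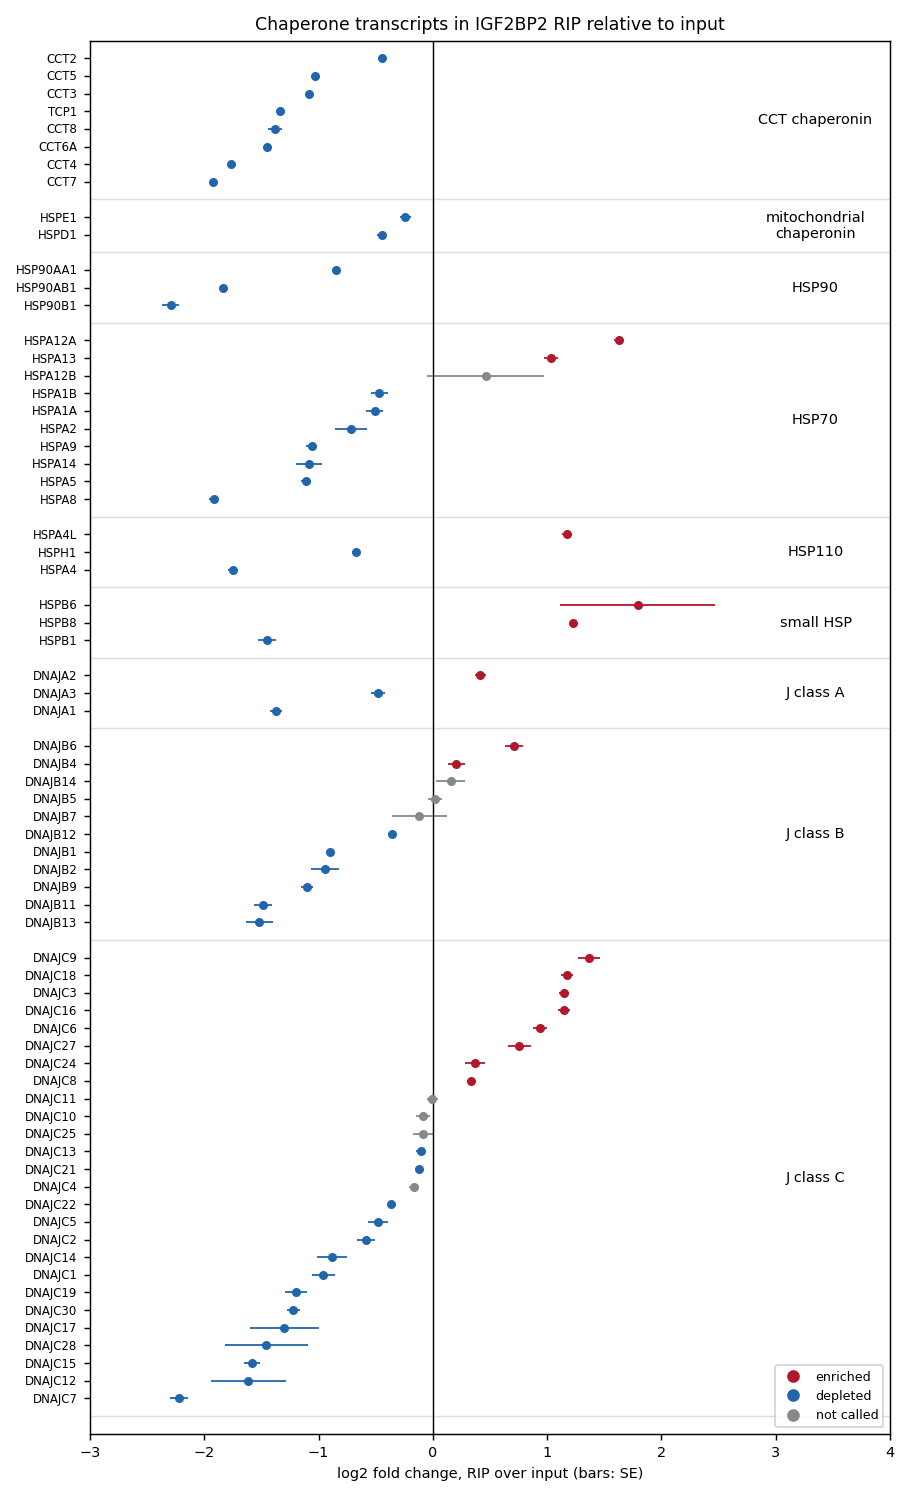
Log2 fold change of RIP over input (x axis, bars show the SE) for the 69 tested chaperone genes, grouped by family and coloured by the edgeR call. All 8 CCT subunits, both mitochondrial chaperonins and the 3 HSP90 genes lie left of 0, and J proteins lie on both sides.

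Every CCT subunit was depleted, by 1.36-fold to 3.80-fold, with a median log2 fold change of -1.36. With a correction for gene length 7 stayed depleted and CCT2 was called enriched, at 0.10. Of all genes tested 42.0% were depleted, and 40.0% with the length correction. Of all genes of 876 to 2517 nt, the range of most subunits, 65.8% were depleted without it. CCT7 (chromosome 2, 73234308 to 73253005, GRCh38.p14) had 50.6, 49.7 and 50.1 normalised CPM with IGF2BP2, against 190, 196 and 187 in input. It was the most depleted subunit, with a log2 fold change of -1.93 (SE 0.021, edgeR adjusted p = 1.65e-22). CCT4 (chromosome 2, 61868085 to 61888671) had 48.1, 49.2 and 46.6 CPM in RIP and 159, 168 and 162 in input, a log2 fold change of -1.77. For both genes every RIP library lay far below every input. CCT6A ranged over 109 to 110 CPM in RIP and 291 to 306 in input. CCT8 averaged 53.5 ± 2.98 in RIP and 140 ± 7.05 in input (SD, n = 3 each), and TCP1, the subunit first described, 87.6 ± 2.89 and 222 ± 4.78. CCT3 averaged 133 ± 2.13 in RIP and 283 ± 3.27 in input, and CCT5 217 ± 3.69 and 444 ± 5.37. These 5 had log2 fold changes of -1.03 for CCT5, -1.09 for CCT3, -1.34 for TCP1, -1.38 for CCT8 and -1.45 for CCT6A, with no overlap between groups for any of them.

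CCT2 stood apart from the other subunits in its size of change. It had 98.2, 99.4 and 99.1 CPM in RIP and 134, 136 and 135 in input (chromosome 12, 69585459 to 69601570), a log2 fold change of -0.45 (SE 0.00815, edgeR adjusted p = 2.46e-10). The log2 ratio of CCT2 to the mean of the other 7 subunits was 0.178, 0.185 and 0.228 with IGF2BP2, against -0.776, -0.804 and -0.770 in input. That is a difference of 0.98 (SE 0.019), looked at after the values were seen and given without a test. Per length, CCT3 and CCT5 were the first and second subunit in all 6 libraries. CCT2 was the third of the 8 in every RIP library and the lowest in every input, at 40.3 ± 0.167 FPKM in RIP and 64.8 ± 0.955 in input. In RIP, CCT7 (22.4 to 23.0 FPKM) and CCT8 (21.7 to 24.0) exchanged places between libraries. CCT8 (67.3 to 75.5 FPKM) and CCT4 (71.9 to 76.9) were neighbours in the inputs whose ranges overlapped. The highest subunit exceeded the lowest by 3.18 ± 0.0788 times in RIP and 2.27 ± 0.0397 times in input.

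**Figure D2:**
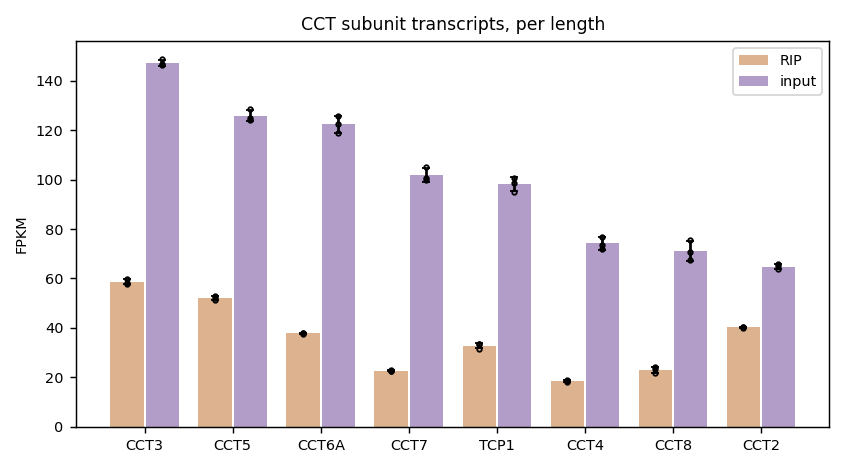
FPKM, scaled by library totals, of the 8 CCT subunit transcripts (y axis) in RIP and input, as means with SD over 3 libraries and 1 point per library, ordered by the input level. CCT2 is the third highest subunit in RIP and the lowest in input.

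Both genes of the mitochondrial chaperonin were depleted, by 1.36-fold and 1.18-fold, where 42.0% of all genes tested were depleted. HSPD1, which forms the barrel (chromosome 2, 197486584 to 197500274), had 295, 314 and 283 CPM in RIP and 409, 404 and 398 in input. HSPE1, its lid (chromosome 2, 197500379 to 197503449), had 32.2, 32.6 and 32.5 CPM in RIP and 40.6, 36.7 and 37.7 in input. Their log2 fold changes were -0.44 (SE 0.0443, edgeR adjusted p = 3.29e-10) and -0.24 (SE 0.0439, edgeR adjusted p = 0.000549), with every RIP library below every input. The 2 genes lie head to head. Per length HSPD1 exceeded HSPE1 by 2.46 ± 0.122 times in RIP and 2.84 ± 0.124 times in input. HSPE1 has the shortest listed length of the members, 876 nt, and the direction of its change turned when the trend with length was removed. A read-through gene that covers HSPE1 has a row of its own in the table.

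All HSP90 transcripts were depleted, and the ER form most, where 42.0% of all genes tested were depleted. HSP90B1, the ER-resident HSP90 known as GRP94 (chromosome 12, 103930410 to 103947926), had 211, 214 and 202 CPM in RIP and 1124, 967 and 991 in input. Its log2 fold change of -2.30 (SE 0.0724, edgeR adjusted p = 3.71e-22), 4.91-fold lower, was the lowest of the 69. HSP90AB1, the constitutive cytosolic form (chromosome 6, 44246194 to 44253883), had 458, 453 and 440 CPM in RIP and 1642, 1591 and 1600 in input, 3.58-fold lower. HSP90AA1, the inducible cytosolic form, had 765, 768 and 718 in RIP and 1379, 1318 and 1354 in input, 1.80-fold lower. The groups did not overlap for any of the 3. The log2 ratio of HSP90AA1 to HSP90AB1 was 0.737 ± 0.0271 in RIP and -0.255 ± 0.0158 in input (SD, n = 3 each), and per length, too, HSP90AA1 was the higher of the pair in every RIP library and HSP90AB1 in every input. This pair, like the one of HSPA4L and HSPA4, was chosen after the values were seen. The contrasts below of DNAJA2 with DNAJA1 and of DNAJB6 with DNAJB1 were not planned in advance either.

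HSP70 transcripts were mostly depleted. Of 11 members 7 were depleted, 2 enriched, 1 not called and 1 not tested, where 42.0% of all genes were depleted and 40.7% enriched. The tested 10 had a median of -0.61 on the log2 scale. With the length correction 5 were depleted, 2 enriched and 3 not called, and the median was -0.17. HSPA8, the constitutive cytosolic HSP70 (chromosome 11, 123057489 to 123062462), had 360, 379 and 341 CPM in RIP and 1342, 1359 and 1379 in input, 3.77-fold lower (log2 fold change -1.92, SE 0.0455, edgeR adjusted p = 6.73e-23). HSPA5, the ER form BiP, had 420, 402 and 397 in RIP and 921, 859 and 855 in input, 2.16-fold lower. HSPA9, the mitochondrial form, had 95.6, 95.7 and 87.3 in RIP and 195, 190 and 197 in input, 2.09-fold lower. In these 3, which serve different compartments, all RIP libraries were below all inputs. HSPA14, which works with DNAJC2 at the ribosome, averaged 6.38 ± 0.612 CPM in RIP and 13.6 ± 1.36 in input, and HSPA2, best known from the testis, 5.49 ± 0.85 and 8.96 ± 0.735. Both were called depleted, at log2 fold changes of -1.08 and -0.71.

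The stress-inducible copies HSPA1A and HSPA1B were depleted without the length correction. HSPA1A (chromosome 6, 31815543 to 31817942) had 34.4, 29.8 and 33.5 CPM in RIP and 47.0, 47.8 and 44.0 in input. HSPA1B (chromosome 6, 31827738 to 31830254) had 52.9, 45.3 and 51.3 in RIP and 69.4, 70.8 and 66.1 in input. They were lower by 1.42-fold and 1.38-fold, without overlap of the groups. With the length correction neither was called, at log2 fold changes of -0.022 (HSPA1A, edgeR adjusted p = 0.741) and -0.03 (HSPA1B, edgeR adjusted p = 0.623). As almost identical copies the genes may share reads, and each value is uncertain. Summed before the fit they had 82.4 ± 6.39 CPM in RIP and 115 ± 4.38 in input, a log2 fold change of -0.48 (edgeR adjusted p = 4.14e-09). Their upstream sequences also resemble each other: of 249 aligned bases before the annotated starts, 235 (94.4%) are identical. The 100 aligned bases next to the starts are shown from RefSeq (GRCh38.p14, plus strand) because they make this likeness visible. Capitals mark the 7 bases that differ.
HSPA1A, chr6:31815442-31815541: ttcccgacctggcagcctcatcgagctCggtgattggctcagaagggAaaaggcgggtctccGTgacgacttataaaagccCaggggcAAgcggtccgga
HSPA1B, chr6:31827638-31827737: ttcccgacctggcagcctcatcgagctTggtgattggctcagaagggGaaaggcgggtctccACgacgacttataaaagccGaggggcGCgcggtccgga

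Enriched were the divergent family members HSPA12A and HSPA13. HSPA12A (chromosome 10, 116671192 to 116850747) had 171, 169 and 174 CPM in RIP and 53.9, 58.6 and 53.3 in input, 3.10-fold higher (log2 fold change 1.63, SE 0.0453, edgeR adjusted p = 1.23e-20). HSPA13, a microsomal protein with an HSP70-type ATPase domain (chromosome 21, 14371115 to 14383146), had 282, 295 and 274 CPM in RIP and 149, 131 and 135 in input, 2.05-fold higher. All RIP libraries were above all inputs for both genes. HSPA12B stood at 0.248 to 0.372 CPM in RIP and 0.0713 to 0.317 in input, overlapped, and was not called (edgeR adjusted p = 0.406).

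HSP110 proteins, large relatives of HSP70 that act as its exchange factors, did not share a direction. HSPA4L (chromosome 4, 127781796 to 127840733) had 103, 110 and 106 CPM in RIP and 48.3, 45.8 and 48.1 in input, 2.25-fold higher (edgeR adjusted p = 1.63e-17). HSPA4 (chromosome 5, 133052013 to 133106449) had 62.5, 65.3 and 60.2 in RIP and 217, 209 and 208 in input, 3.37-fold lower (edgeR adjusted p = 1.31e-21). The log2 ratio of HSPA4L to HSPA4 was 0.769 ± 0.0494 in RIP and -2.16 ± 0.0403 in input (SD, n = 3 each), a difference of 2.92 (SE 0.0368). HSPH1 had 52.3, 55.2 and 51.9 CPM in RIP and 86.6, 82.5 and 85.9 in input and was 1.60-fold lower.

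Small heat shock proteins, which hold unfolded clients without ATP, also split. HSPB1, or HSP27 (chromosome 7, 76302673 to 76304292), had 202, 174 and 206 CPM in RIP and 534, 527 and 532 in input, 2.74-fold lower (edgeR adjusted p = 1.54e-18). With the length correction its log2 fold change was -0.18, against -1.45 without it. HSPB8, which works with the exchange factor BAG3 (chromosome 12, 119178931 to 119194746), had 90.1, 87.8 and 85.9 in RIP and 36.4, 37.8 and 38.3 in input, 2.35-fold higher (edgeR adjusted p = 1.12e-17). The groups did not overlap for either. HSPB6 was called enriched on 21 to 31 reads per RIP library and 1 to 12 per input (0.629 to 0.769 and 0.0336 to 0.423 CPM). Its log2 fold change of 1.79 has an SE of 0.68.

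**Figure D3:**
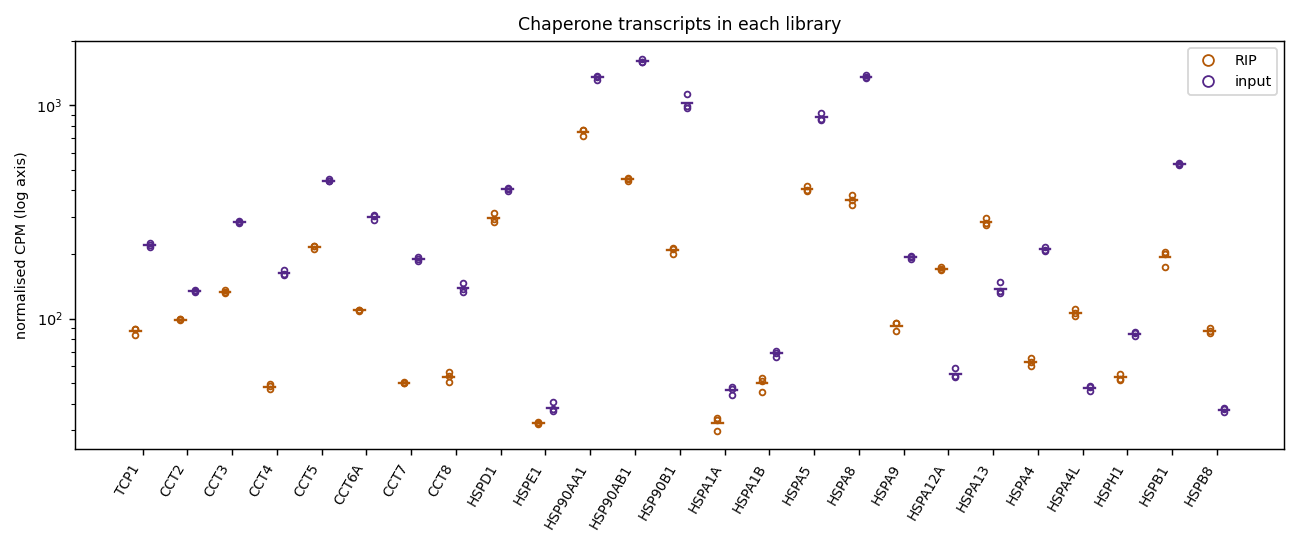
Normalised CPM (y axis, log scale) of 25 chaperone transcripts in each RIP and input library, with a line at each group mean. RIP points lie below input points except for HSPA12A, HSPA13, HSPA4L and HSPB8.

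J proteins were more evenly divided than the other members, by a margin that shrank with the length correction. Of 41, 22 were depleted, 11 enriched, 7 not called and 1 not tested, and the median over the 40 tested was -0.26 on the log2 scale. Among the 31 other members 23 were depleted, 5 enriched, 1 not called and 2 not tested, and their median over 29 was -1.03. With the length correction the J proteins counted 23 depleted and 13 enriched, with a median of -0.49. The other members then counted 19 and 7, with a median of -0.78. Of all genes tested 42.0% were depleted and 40.7% enriched, and with the length correction 40.0% and 40.2%. The difference between the J proteins and the other members was not tested.

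Class A held 3 tested genes with the domain layout of bacterial DnaJ. DNAJA1, a main partner of HSPA8 (chromosome 9, 33025273 to 33039907), had 43.7, 45.7 and 40.5 CPM in RIP and 115, 112 and 109 in input, 2.59-fold lower (edgeR adjusted p = 1.88e-18). Its relative DNAJA2 (chromosome 16, 46955362 to 46973674) had 94.3, 93.7 and 87.6 in RIP and 71.5, 65.3 and 69.8 in input, 1.33-fold higher (edgeR adjusted p = 1.90e-08). Per length, DNAJA2 was the higher of the pair in every RIP library and DNAJA1 the higher in every input. DNAJA3 of mitochondria averaged 29.3 ± 1.88 CPM in RIP and 40.9 ± 1.53 in input and was depleted, at a log2 fold change of -0.48.

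Class B had 6 depleted (54.5%), 2 enriched (18.2%) and 3 not called genes, against 42.0% depleted and 40.7% enriched of all genes. DNAJB1, the HSP40 induced by heat (chromosome 19, 14514769 to 14560391), had 48.9, 45.2 and 47.5 CPM in RIP and 89.5, 85.9 and 89.2 in input, 1.87-fold lower. DNAJB6, a suppressor of polyglutamine aggregation (chromosome 7, 157337004 to 157417439), had 138, 162 and 158 in RIP and 89.4, 93.1 and 97.8 in input, 1.64-fold higher (edgeR adjusted p = 7.40e-12). DNAJB1 thus lay below its inputs and DNAJB6 above them in every library. DNAJB11, an ER partner of BiP, had 10.3 to 11.8 CPM in RIP and 29.3 to 33.1 in input and was 2.80-fold lower. DNAJB9, an ER J protein that restrains the stress sensor IRE1, averaged 7.74 ± 0.333 and 16.6 ± 0.681, 2.15-fold lower. DNAJB2 was 1.93-fold and DNAJB12, of the ER membrane, 1.28-fold lower. DNAJB13, an axonemal protein at 0.384 to 0.486 CPM in RIP and 1.11 to 1.34 in input, was called depleted on few reads. DNAJB4 had 22.1, 25.1 and 21.5 CPM in RIP and 20.6, 19.6 and 19.5 in input. It was called enriched (log2 fold change 0.21, edgeR adjusted p = 0.012), but without RIP replicate 2 the value was 0.14 and not called, and scaled by library size only it was -0.035. DNAJB14, DNAJB5 and DNAJB7 were not called, at log2 fold changes of 0.16, 0.019 and -0.12.

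Class C, in which the J domain sits in proteins of many kinds, had 14 depleted, 8 enriched and 4 not called genes. Depleted were thus 53.8% and enriched 30.8%, against 42.0% and 40.7% of all genes. DNAJC7, which binds both HSP70 and HSP90 (chromosome 17, 41976435 to 42017439), had 9.50, 11.2 and 9.77 CPM in RIP and 49.1, 48.0 and 45.4 in input. At 4.66-fold lower (edgeR adjusted p = 1.42e-19) it was the second most depleted member, after HSP90B1. DNAJC15 and DNAJC19, which serve the import motor of the mitochondrial inner membrane, were 3.0-fold and 2.29-fold lower. DNAJC15 averaged 4.86 ± 0.334 CPM in RIP and 14.6 ± 0.719 in input, and mitochondrial DNAJC30 was 2.33-fold lower at 3.43 ± 0.239 CPM in RIP and 7.97 ± 0.0977 in input. DNAJC1, of the ER membrane, was 1.94-fold lower. DNAJC12, DNAJC17 and DNAJC28 were also called depleted, but at means of 0.365 to 1.39 CPM in RIP and 1.01 to 3.49 in input.

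The enriched class C genes were led by DNAJC9, a chaperone of histones H3 and H4 (chromosome 10, 73232272 to 73247255). It had 30.5, 31.0 and 32.8 CPM in RIP and 10.9 to 13.6 in input, 2.58-fold higher (edgeR adjusted p = 1.71e-14). DNAJC3, or p58IPK, an ER luminal partner of BiP (chromosome 13, 95677139 to 95794988), had 139, 145 and 135 in RIP and 66.2, 60.6 and 62.4 in input, 2.22-fold higher (edgeR adjusted p = 1.84e-17). DNAJC16 of the ER membrane had 88.1, 94.1 and 87.0 in RIP and 42.3, 38.5 and 40.9 in input, also 2.22-fold higher. RIP and input did not overlap for these 3. DNAJC18 was 2.26-fold higher, at 31.5 ± 1.39 CPM in RIP and 14.0 ± 0.664 in input. DNAJC6, or auxilin, which with HSPA8 strips clathrin from vesicles, was 1.92-fold higher, at 12.8 to 13.3 CPM in RIP and 6.28 to 7.29 in input. DNAJC27, DNAJC24 and the splicing factor partner DNAJC8 were called enriched at 1.69-fold, 1.29-fold and 1.26-fold. DNAJC24 was no longer called when scaled by library size only (log2 fold change 0.13, edgeR adjusted p = 0.216) or in the FPKM fits. The remaining depleted genes had log2 fold changes between -0.11 for DNAJC13, an endosomal protein, and -0.89 for DNAJC14, with DNAJC21, DNAJC22, the cysteine string protein DNAJC5 and the ribosome-bound DNAJC2 between them. The smallest of these calls, DNAJC13 and DNAJC21, were both lost with relative log expression (RLE) scaling, with DESeq2 and without RIP replicate 1. DNAJC21 was also lost without RIP replicate 3 or input replicate 1, and DNAJC13 without input replicate 3. Not called were DNAJC11, DNAJC10, DNAJC25 and DNAJC4, at log2 fold changes of -0.0063 to -0.17. All 4 were called depleted when scaled by library size only and in the FPKM fits.

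Members were also grouped by compartment, and the difference between the mitochondrial and the ER set was not tested. Of 8 mitochondrial members 7 were depleted and DNAJC11 was not called, and their median was -0.77. Of 12 ER members 6 were depleted, 3 enriched and 3 not called, and their median was -0.22. Within the ER set HSP90B1, HSPA5, DNAJB11, DNAJB9, DNAJC1 and DNAJB12 fell, and HSPA13, DNAJC3 and DNAJC16 rose. DNAJC10, the ER reductase ERdj5, had 200, 209 and 194 CPM in RIP and 229, 201 and 211 in input and was not called (edgeR adjusted p = 0.0802). With the length correction the medians lay close together, at -0.54 for the mitochondrial and -0.47 for the ER set. The mitochondrial set then counted 6 depleted and 1 enriched, and the ER set 7 and 4. Of all genes tested 42.0% were depleted and 40.7% enriched, and with the length correction 40.0% and 40.2%.

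The partners and regulators of these chaperones were also mixed, with 28 depleted, 14 enriched and 6 not called of 48 tested, and their median was -0.47 on the log2 scale. Of all genes tested 42.0% were depleted and 40.7% enriched. Of 16 HSP90 partners 10 were depleted and 4 enriched. The most depleted were TRAP1, the mitochondrial HSP90, at -1.77, and STIP1, which links HSP70 to HSP90, at -1.72. The most enriched were SUGT1 at 0.83 and the immunophilin FKBP4 at 0.70. Of 12 HSP70 exchange factors and partners 6 were enriched and 5 depleted, shares near those of all genes. GRPEL2 and GRPEL1 are both exchange factors of HSPA9. GRPEL2 was 2.63-fold higher, at 132 ± 4.1 CPM in RIP and 50.3 ± 3.83 in input, while GRPEL1 was depleted at a log2 fold change of -0.34. With the length correction GRPEL1 was not called, and GRPEL2 stayed enriched at 1.31. BAG2 rose, at 1.29, and the ER exchange factor SIL1 (-1.23) and HSPBP1 (-0.99) fell.

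Of 13 prefoldin subunits, CCT partners and CCT-related genes 9 were depleted and 2 enriched, against 42.0% and 40.7% of all genes. PFDN5, a prefoldin subunit, was lowest, at -1.94, followed among those of at least 5 CPM by PDCL at -1.06, and BBS10 was enriched, at 0.65. All 6 prefoldin genes, which hand actin and tubulin to CCT, were depleted. Of all genes of 876 to 2517 nt, the range of most of them, 65.8% were depleted. After the length correction PFDN1, PFDN2 and VBP1 were enriched. The list of 13 then counted 6 enriched and 5 depleted, against 40.2% and 40.0% of all genes. Of the J-domain genes with other symbols SEC63, of the ER translocon, was enriched at 0.50, and GAK (-0.90) and HSCB (-2.62, at a mean of 1.32 CPM in RIP) were depleted. The heat shock factor HSF1 was enriched at 0.22 and HSF2 depleted at -0.33, while HSF4 was not called. Scaled by library size only, HSF1 was at -0.022 and not called, and HSF2 lost its call with the length correction.

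Fold change in this experiment moved with gene length, so the members were set against genes of their own lengths. The length is the one implied by counts and FPKM and may differ from that of the mRNA in these cells. The length ranges and the length correction carry that uncertainty. Across all 12856 genes Spearman's rho between log2 fold change and length was 0.435, and across the 69 members, which share the same libraries, 0.255. The shortest 23 members, of 876 to 2517 nt, counted 17 depleted and 4 enriched, where 65.8% of all genes in that range were depleted and 18.2% enriched. The middle 23, of 2536 to 4092 nt, counted 14 and 5, against 46.1% and 34.3%. The longest 23, of 4147 to 20808 nt, counted 14 depleted and 7 enriched, where 26.4% of all genes were depleted and 56.7% enriched. The median log2 fold change of the longest members was -0.36, that of all genes in their range 0.35.

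**Figure D4:**
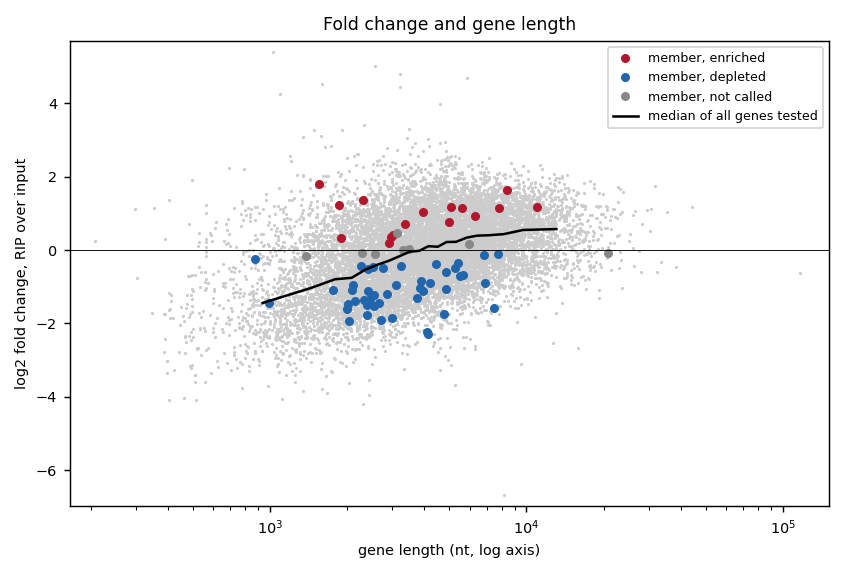
Log2 fold change of RIP over input (y axis) against gene length in nt (x axis, log scale) for all 12856 tested genes in grey, with their running median, and for the 69 members coloured by call. The longest 23 members have a median of -0.36, below the 0.35 of all genes in their range.

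When the length trend was removed from each library before the fit, 42 members were depleted, 20 enriched and 7 not called, with 40.0% and 40.2% of all genes called depleted and enriched. The median log2 fold change of the members was -0.49, and 62 of 69 kept their call. CCT2 turned to 0.10 (edgeR adjusted p = 0.0242) and HSPE1 to 1.14 (edgeR adjusted p = 8.35e-15). HSPA1A and HSPA1B were no longer called, and DNAJC10 became depleted at -0.64 and DNAJC4 and DNAJC25 enriched at 0.85 and 0.45. HSP90B1 (-2.37), DNAJC7 (-2.28), DNAJC15 (-1.99), HSPA4 (-1.91), HSP90AB1 (-1.59) and HSPA8 (-1.56) stayed below -1.5. The other 7 CCT subunits stayed depleted, at -0.47 to -1.28. All 16 enriched members stayed enriched, among them HSPB8 at 1.96, DNAJC9 at 1.90 and HSPA12A at 1.19.

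**Figure D5:**
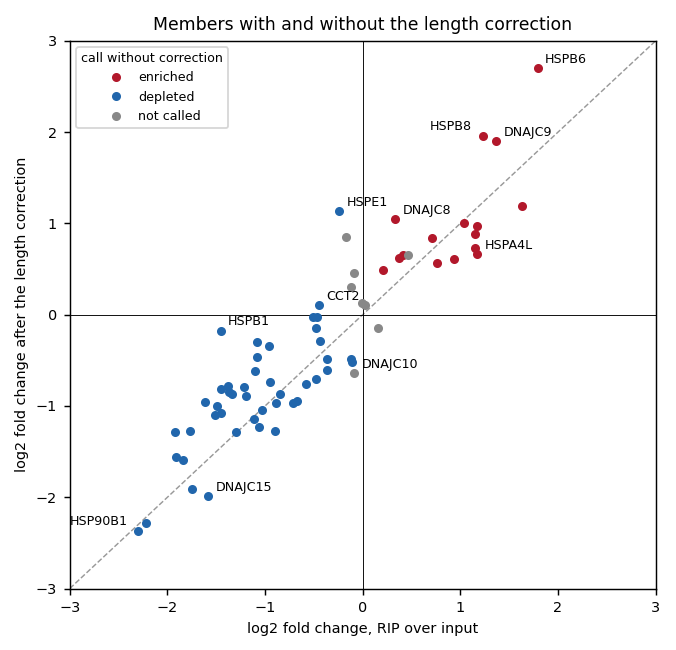
Log2 fold change after the length correction (y axis) against that without it (x axis) for the 69 tested members, coloured by the call without correction, with a dashed line of equality. Of the depleted members, HSPE1 (1.14) and CCT2 (0.10) lie above 0 after the correction.

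The members' levels kept a broad order between the groups with some changes at the top. Per length, HSPB1 (181 ± 16.8 FPKM), HSP90AA1 (178 ± 6.43), HSP90AB1 (139 ± 2.96) and HSPA8 (123 ± 6.03) were the highest members in RIP, with HSPB1 and HSP90AA1 overlapping. In input the order was HSP90AB1 (587 ± 5.66 FPKM), HSPB1 (583 ± 1.75), HSPA8 (548 ± 10.6) and HSP90AA1 (378 ± 5.89), with HSP90AB1 and HSPB1 overlapping. HSP90B1 was the eleventh in RIP and the fifth in input. HSPA13 was the eighth in RIP at 66.2 ± 2.27 FPKM and stood at 38.1 ± 2.2 FPKM in input.

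Heat shock elements, the binding sites of heat shock factors, were looked for in the promoters to see which members share them. The motif was GAANNTTCNNGAA or its reverse complement TTCNNGAANNTTC, in RefSeq promoters (GRCh38.p14) of 250 bases before to 50 after a start. It was found in 6 (9.09%) of the 66 members that have a promoter in the table and in 0.608% of all 27305 genes with one. Of the 6, HSP90AA1, HSP90AB1, HSPA8, HSPD1 and DNAJA1 were depleted in RIP and DNAJB6 was enriched. Depleted were also 45 of all 69 tested members and 42.0% of all genes, and a link of motif and depletion was not tested. The windows before the starts of 5 of them are shown 5′ to 3′ on the strand of the gene because they are what these genes share. Capitals mark the matches, and in HSPD1 2 matches overlap.
HSP90AA1, minus strand, chr14:102087105-102087147: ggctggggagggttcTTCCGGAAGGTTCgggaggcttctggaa
HSP90AB1, plus strand, chr6:44247763-44247858: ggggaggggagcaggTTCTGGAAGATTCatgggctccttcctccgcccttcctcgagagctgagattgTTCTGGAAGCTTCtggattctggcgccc
HSPA8, minus strand, distal, chr11:123062339-123062381: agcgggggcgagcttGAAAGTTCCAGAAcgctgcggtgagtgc
HSPA8, minus strand, proximal, chr11:123062164-123062206: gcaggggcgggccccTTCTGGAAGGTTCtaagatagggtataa
HSPD1, minus strand, chr2:197500053-197500090: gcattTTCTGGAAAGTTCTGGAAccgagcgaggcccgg
DNAJB6, plus strand, chr7:157336858-157336900: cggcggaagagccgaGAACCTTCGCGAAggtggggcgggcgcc
A match describes the letters only. Only exact matches in these promoters were counted, so a member without one may still have a heat shock element. A match is a feature of the DNA around 1 annotated start of a gene, whereas RIP measured the transcript. Of the windows shown, only that of DNAJB6 lies before the listed span of its gene. Those of HSP90AA1, HSP90AB1, HSPA8 and HSPD1 lie within the span, and the match of DNAJA1 lies after the start.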

How the data were processed

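RIP-seq and input libraries of 786-O cells were grouped by the sample titles. Per the submitters' processing notes, hg38 was the build, and the tools were featureCounts, DESeq2, STAR 2.7.10a and fastp 0.23.2. Annotation, strandedness and handling of multiply aligned reads are not given there. The authors deposited raw read counts per gene symbol and FPKM values for the same genes. Counts divided by FPKM gave 1 whole length per gene in all libraries (to within 2.3e-10 nt), which was used as gene length. It may differ from the length of the mRNA in these cells, and comparisons per length carry that limit.

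Genes passing filterByExpr were scaled with TMM and tested with edgeR 4.0.16 (quasi-likelihood, robust, group only, R 4.3.3). P-values were adjusted over all 12856 genes. SEs come from the spread of log2 CPM (prior count 2). The length correction used a loess curve (span 0.3) per library as offsets. The test was checked on simulated data with few changed genes, which cannot show how it behaves when most genes are called, as here. Alternatives were other scalings, DESeq2 1.42.0, limma 3.58.1, other filters, FPKM fits, the replicate block and leaving out each library.

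Named were all CCT, HSP90 and HSP110 genes, HSPD1, HSPE1, 6 further genes and up to 5 called members per family and direction of at least 5 CPM whose groups did not overlap, and up to 2 per direction from each partner list. Other members are named to account for all. Members and lists were chosen with earlier results of these data known.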

Additional observations from a re-analysis of the deposited data

How the results depend on the processing

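Over the other scalings, tools, filters and FPKM fits without the length correction the depleted members numbered 41 to 50 and the enriched 14 to 17, within 1.5 times of the main counts. Scaled by library size only, the median of all genes moved to -0.26, and with upper-quartile scaling to -0.11. Enriched genes then made up 38.9% and 45.5% of all calls, 38.7% and 38.8% in the FPKM fits. DNAJB4 turned to -0.035 scaled by library size only, to -0.035 on log2(FPKM + 1) and to -0.0395 on log2(FPKM + 0.1), none of them called. CCT2 and HSPE1 turned to 0.10 and 1.14 with the length correction, and to 0.10 and 1.14 with the replicate block and the length correction together. Leaving out 1 library gave 43 to 46 depleted and 15 to 17 enriched members, and 5103 to 5170 enriched and 5271 to 5348 depleted genes overall. Of 282 values of named members in those fits, 1 lost its call, DNAJB4 without RIP replicate 2. DNAJC10 gained a call without RIP replicate 2 or input replicate 2, and DNAJB14 without input replicate 1. DNAJC4, DNAJC10, DNAJC11, DNAJC25 and DNAJB5 gained calls scaled by library size only and in the FPKM fits, DNAJC4 and DNAJC10 also with upper-quartile scaling, and DNAJB14 with no filter. Of the other members DNAJC13 and DNAJC21 lost theirs without some libraries. The replicate block gave 45 depleted and 16 enriched members. RIP and input libraries of the same number deviated together with r = 0.036, -0.046 and 0.035, and not every library correlated best with its own number. Correlations this near 0 cannot tell whether the numbers pair the samples. CCT and HSPD1 ratios were the same from TMM-scaled counts per kilobase, as both divide by the same length. Calls on members under 1 CPM rest on few reads.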
